A study of Mus musculus with 16 samples.

Results

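The genes described here carry out cell death or hold it back: caspases, the BCL2 family, the inhibitor of apoptosis (IAP) proteins, the adaptors of death receptors and the necroptosis genes. They were chosen by name, 33 in all, with earlier results of these data known. Their RNA was measured in organoids of mouse colon, epithelium grown as hollow spheres in culture, with 1 array per sample. A named probe set, the group of short array probes that measures a transcript, was found for 30 of them, and each of the 30 had 1 probe set. Ripk1, Ripk2 and Bax had no probe set with their name and were not analysed here. Of the 30 genes, 29 were bright enough to test. Casp12, an inflammatory caspase, was the exception: its signal was above the 40th percentile of the array on 0 of 16 arrays, with group means between 3.44 and 3.58 log2. Of 18850 named genes in the series, 11766 were tested.

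There were 16 arrays, 4 in each of 4 groups: WT (wild type), WT with tumour necrosis factor alpha (WT + TNFa), a mutant, and the mutant with it (mutant + TNFa). TNFa was given at 50 ng/ml for 12 h, and all groups grew in ENR medium. The mutant carried altered alleles of both Atf2 and Atf7, which encode related stress-responsive transcription factors. Its labels contradict each other: the genotype field reads ATF2 fl/fl / ATF7 KO, whereas the description gives ATF2 as knocked out and ATF7 as floxed. No label names a Cre, states whether a floxed allele was recombined, or gives the age of the animals or the number of lines. Whether the 4 samples of a group were separate animals or cultures is not stated, so p-values measure only the spread between these samples, which may be technical.

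TNFa binding to its receptor assembles a complex on RIPK1 that signals survival through NF-kB. When that signalling fails, FADD recruits caspase-8, which can cleave BID and so open the mitochondrial outer membrane through BAX and BAK. Released cytochrome c then joins APAF1 to activate caspase-9, and BCL2, BCL-XL and MCL1 hold this step back. When caspase-8 is blocked, RIPK3 phosphorylates MLKL, which ruptures the cell membrane in necroptosis. The inflammatory caspases, caspase-1 and caspase-4 (also called caspase-11 in mouse), cleave gasdermin D and cause pyroptosis. In the gut epithelium, loss of the brakes on these routes is known to cause inflammation.

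Promoter windows are shown first for the members with the largest rises after TNFa, Casp4, Bid and Bok, and for the protectors Bcl2l1 and Mcl1. Each is the 250 bases before a gene start from RefSeq on GRCm38.p6, written 5′ to 3′ on the gene's strand. The windows are chr9:5308599-5308848 on the plus strand for Casp4, chr6:120916825-120917074 on the minus strand for Bid, chr1:93685325-93685574 on the plus strand for Bok, chr2:152830718-152830967 on the minus strand for Bcl2l1 and chr3:95658471-95658720 on the plus strand for Mcl1. Capitals mark matches on either strand to a sequence like the NF-kB site: GGG, any 2 bases, then TTTCC.
Casp4: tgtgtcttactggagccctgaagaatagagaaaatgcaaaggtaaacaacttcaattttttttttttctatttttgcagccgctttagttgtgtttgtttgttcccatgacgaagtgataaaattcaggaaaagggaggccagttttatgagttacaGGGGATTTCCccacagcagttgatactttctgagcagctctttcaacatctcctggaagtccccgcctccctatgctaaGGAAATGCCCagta
Bid: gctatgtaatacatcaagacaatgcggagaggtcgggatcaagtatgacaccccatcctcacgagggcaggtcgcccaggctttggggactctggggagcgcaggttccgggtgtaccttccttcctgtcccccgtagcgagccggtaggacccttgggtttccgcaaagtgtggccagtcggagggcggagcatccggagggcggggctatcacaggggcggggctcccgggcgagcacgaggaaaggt
Bok: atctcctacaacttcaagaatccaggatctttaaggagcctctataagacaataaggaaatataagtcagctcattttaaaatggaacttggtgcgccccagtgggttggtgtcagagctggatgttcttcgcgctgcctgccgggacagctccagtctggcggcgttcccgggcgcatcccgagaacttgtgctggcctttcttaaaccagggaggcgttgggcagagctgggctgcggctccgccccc
Bcl2l1: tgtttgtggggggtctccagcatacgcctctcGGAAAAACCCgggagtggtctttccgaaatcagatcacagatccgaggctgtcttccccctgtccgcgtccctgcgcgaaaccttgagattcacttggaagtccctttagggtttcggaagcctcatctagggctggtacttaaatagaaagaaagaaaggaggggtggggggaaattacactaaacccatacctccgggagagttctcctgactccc
Mcl1: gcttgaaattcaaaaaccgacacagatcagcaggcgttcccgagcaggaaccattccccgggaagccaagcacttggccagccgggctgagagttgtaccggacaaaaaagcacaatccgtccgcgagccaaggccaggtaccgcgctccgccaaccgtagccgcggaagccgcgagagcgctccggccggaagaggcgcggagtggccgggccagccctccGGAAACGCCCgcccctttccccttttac
The Casp4 window held 2 matches, 93 to 84 and 14 to 5 bases before the start, and the table lists a second Casp4 start with the same matches. Bcl2l1 held 1 match, in 1 of its 3 windows, and Mcl1 held 1. For a gene with several windows the one with the most matches was printed, so the Bcl2l1 window shown was picked for its match. The Bid and Bok windows held none. Of the 30 members with a window, 4 had a match, these 3 and Birc5, against 1.65% of all 27025 genes and 1.41% of all 32851 windows. The degenerate NF-kB consensus asks for A or G after GGG, so it does not contain every match to the form above. That consensus was found for 3 of the 30, Bcl2l1, Birc5 and Casp4, against 8.23% of all genes and 7.25% of windows. Of the stretches in capitals, the Casp4 one at 93 to 84 bases also matched it. The others did not, and the Bcl2l1 match to it lay 242 to 233 bases before the start. On both strands, the CRE sequence TGACGTCA was found for Cycs alone among the members, against 1.77% of genes and 1.55% of windows. The AP-1 sequence TGANTCA, in 7.82% of genes and 6.75% of windows, and the interferon element core (GAAA, any 2 bases, GAAA), in 3.46% of genes and 2.98% of windows, were found for 0 members. These matches describe letters, and binding was not measured.

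The labelled tissue was checked against marker genes. All 15 epithelial markers were above the 40th percentile on all 16 arrays. Of markers of other cell types, 5 of 6 for immune cells, 6 of 8 for fibroblasts and smooth muscle and 6 of 6 for endothelium and glia were dim, the bright ones being Lyz2, Col1a1 and Myh11. The signal of Atf2 lay between 10.03 and 10.33 log2 on all 16 arrays, with group means of 10.12 to 10.18, and Atf7 had no named probe set. The position of the Atf2 probes relative to the altered allele is not known, so this does not check the genotype. The array WT + TNFa 2 stood apart: its mean correlation with the other arrays of its group was 0.988 over all named genes, against 0.993 for its group mates, and it lay farthest from the group mean for 17 of the 29 tested members. Calls that turned on this array are given with and without it.

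TNFa raised 6 of the 29 tested members in WT, Casp4, Bid, Bok, Bcl2l1, Mlkl and Mcl1, and lowered 1, Pycard. A change was called at a Benjamini-Hochberg adjusted p under 0.05 in limma. These 7 are 24.1% of the members, where 10.8% of all tested genes were called (5.03% up and 5.75% down). In the mutant TNFa raised 6 members, Casp4, Bid, Bok, Bcl2l1, Mlkl and Casp8, and lowered 0. That is 20.7% of the members, against 5.98% of all tested genes (3.51% up and 2.47% down). Because the members were chosen with earlier results known, these shares and those below describe the list and do not test it. With the 60th percentile as the cut for testing, 9 members and 16.2% of all tested genes were called in WT. The rises were modest, at 1.15 to 1.85-fold. In WT the treated and untreated groups did not overlap for 5 higher and 2 lower members, against 14.2% of all tested genes. In the mutant these were 7 and 2 members, against 13.9%. The median change over the 29 members was 0.11 log2 in WT and 0.05 log2 in the mutant, against 0.01 log2 over all tested genes in both. Single arrays moved these counts: 4 members were called in WT without WT 3 (8.37% of all tested genes in that fit) and 11 without WT + TNFa 2 (12.2%). In the mutant 3 were called without any 1 of mutant 1, mutant 2, mutant + TNFa 1, mutant + TNFa 3 or mutant + TNFa 4 (4.28 to 4.78% of all tested genes). In a bulk sample, fewer cells of a type and less RNA per cell cannot be told apart. Of the 15 epithelial markers, 2 were called with TNFa in WT, 13.3% against 10.8% of all tested genes, and 0 in the mutant. In WT Muc2 of goblet cells fell by 0.25 log2 (adjusted p = 0.0216) and Chga of enteroendocrine cells fell by 0.30 log2 (adjusted p = 0.00270). Lyz2, a lysozyme gene listed here as an immune marker, fell by 0.74 log2 in WT (adjusted p = 0.0244). Its change of 0.37 log2 in the mutant was not called. The other immune markers on the array were dim and not tested, so the cells behind the Lyz2 signal are not known. Summed over the 15 epithelial markers, the log2 signal was 167.07 to 167.44 in WT, 165.62 to 166.96 in WT + TNFa, 165.92 to 167.07 in the mutant and 166.23 to 166.95 in mutant + TNFa. Over the 6 immune markers it was 37.73 to 38.89, 37.36 to 37.77, 37.88 to 38.92 and 38.01 to 39.39 in the same order. Their part in the changes of the death genes was not tested.

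**Figure D1:**
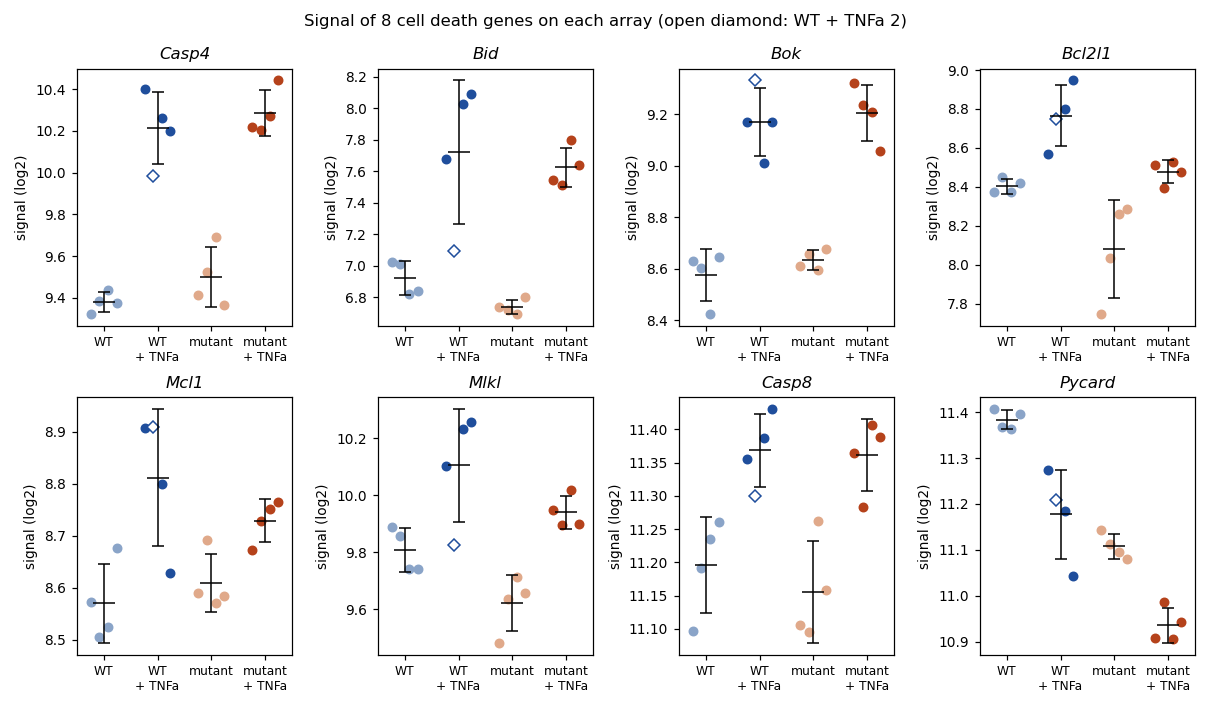
Log2 signal (vertical axes, a separate scale in each panel) of 8 cell death genes on each of the 16 arrays in the 4 groups on the horizontal axis; bars show the mean and SD of 4 arrays, and the open diamond is WT + TNFa 2. Casp4 and Bok are separated from untreated in both genotypes, Bcl2l1 is lowest in the untreated mutant, and Pycard is highest in WT and lowest in mutant + TNFa.

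Among the inflammatory caspases, Casp4 rose and Casp1 did not pass the test. The Casp4 signal was 9.32, 9.38, 9.44 and 9.38 log2 in WT and 10.40, 9.99, 10.26 and 10.20 with TNFa. In the mutant it was 9.41, 9.52, 9.69 and 9.37, and 10.22, 10.20, 10.27 and 10.44 with TNFa. All 8 treated arrays lay above all 8 untreated ones. The change was 0.83 ± 0.09 (SE) log2 in WT, 1.78-fold, with an adjusted p of 4.87e-06, and 0.79 log2 in the mutant, 1.73-fold, with an adjusted p of 1.08e-05. Casp1, which processes interleukin-1 beta, had group means of 11.25 to 11.32 log2 and changes of -0.01 and 0.04 log2.

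Pycard encodes ASC, the adaptor that joins inflammasome sensors to caspase-1, and it was the lone member called as lower with TNFa. Its signal was 11.41, 11.37, 11.36 and 11.40 log2 in WT and 11.27, 11.21, 11.18 and 11.04 with TNFa. The mutant arrays were at 11.14, 11.11, 11.09 and 11.08, and 10.91, 10.99, 10.91 and 10.94 with TNFa. The groups did not overlap within either genotype. The fall in WT was 0.21 log2 (SE 0.05), 1.15-fold, with an adjusted p of 0.0176. In the mutant the change was -0.17 log2 with an adjusted p of 0.0707, and over both genotypes together -0.19 log2 with an adjusted p of 0.00175. With only the 8 WT arrays fitted, the WT call was lost (adjusted p = 0.117). Without WT + TNFa 2 the change in the mutant passed (adjusted p = 0.0494), as it did without WT + TNFa 4 (0.0346); in this fit all arrays share 1 estimate of the spread.

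Of the initiator and other caspases, Casp8 was called in the mutant, and 0 of 4 were called in WT. Casp8, the initiator downstream of death receptors, was at 11.10, 11.19, 11.23 and 11.26 log2 in WT and at 11.36, 11.30, 11.39 and 11.43 with TNFa. Its mutant values were 11.11, 11.09, 11.26 and 11.16, and 11.36, 11.28, 11.41 and 11.39 with TNFa. The treated arrays lay above the untreated ones in each genotype, although the gaps were small. The rise in the mutant was 0.21 ± 0.06 (SE) log2, 1.15-fold, with an adjusted p of 0.0405. It lost its call in 8 of the 16 fits that left out 1 array, with adjusted p between 0.0509 and 0.128: those without WT 2, WT + TNFa 3, mutant 1, mutant 2, mutant 4, mutant + TNFa 1, mutant + TNFa 3 or mutant + TNFa 4. Centring on array medians (adjusted p = 0.0829) and a fit of only the 8 mutant arrays (0.0556) also ended it. In WT the difference of 0.17 log2 missed the threshold with an adjusted p of 0.0633, and without WT + TNFa 2 it passed with 0.0369. Casp2, Casp6 and Casp9, the last of which is activated on the apoptosome, had changes of -0.13 to 0.11 log2 in the 2 genotypes and none was called.

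Of the genes that act after the mitochondrion opens, none was called in either genotype. Apaf1, the scaffold of the apoptosome, differed by 0.14 and 0.23 log2 with TNFa in WT and mutant. Cycs, cytochrome c, differed by -0.10 and -0.08 log2, and Diablo, which counters the IAP proteins, by 0.05 log2 in both. The treated Cycs arrays lay below the untreated ones without overlap in both genotypes, though by small gaps. The highest treated and lowest untreated arrays were at 11.9351 and 11.9355 log2 in WT. In the mutant they were at 11.8731 and 11.8792 log2. Of the IAP proteins, Xiap, which blocks caspases directly, differed by 0.08 log2 in WT and -0.08 log2 in the mutant. Birc5 (survivin), which also serves cell division, differed by 0.22 log2 (adjusted p = 0.111) and 0.14 log2 (adjusted p = 0.469), and passed in WT without WT + TNFa 2 (adjusted p = 0.0280).

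Among the adaptors, Fadd, which joins death receptors to caspase-8, was not called in either genotype. Its signal was 8.22, 8.22, 8.14 and 8.18 log2 in WT and 8.39, 8.21, 8.42 and 8.46 with TNFa. WT + TNFa 2 was the array that overlapped WT. The difference of 0.18 log2 had an adjusted p of 0.0634, and 0.00636 without that array. In the mutant the difference was 0.07 log2. Tradd, the adaptor of the TNFa receptor, and Cflar, the inhibitor of caspase-8 known as FLIP, were not called, with differences of -0.08 to 0.15 log2.

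Of the necroptosis pair, Mlkl rose and Ripk3 was not called. The Mlkl signal was 9.89, 9.86, 9.74 and 9.74 log2 in WT and 10.10, 9.83, 10.23 and 10.26 with TNFa. In the mutant it was 9.48, 9.64, 9.71 and 9.66, and 9.95, 9.90, 10.02 and 9.90 with TNFa. In WT only WT + TNFa 2 overlapped the untreated arrays, and in the mutant the groups were apart. The rise was 0.30 ± 0.08 (SE) log2 in WT, 1.23-fold, with an adjusted p of 0.0282, and 0.32 log2 in the mutant, 1.25-fold, with an adjusted p of 0.0283. Both calls were close to the threshold, and both were lost with the arrays centred on their medians (adjusted p = 0.0751 in WT and 0.0694 in the mutant). With only the 8 WT arrays fitted, the adjusted p in WT was 0.113. In WT the call was lost without WT 3, WT 4, WT + TNFa 1, WT + TNFa 3 or WT + TNFa 4 (adjusted p of 0.0558 to 0.0939). In the mutant it was lost without mutant 1, mutant 2, mutant 4, mutant + TNFa 1, mutant + TNFa 3 or mutant + TNFa 4 (0.0524 to 0.104).

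Ripk3 was at 10.13, 10.14, 9.93 and 10.04 log2 in WT and at 10.25, 9.80, 10.51 and 10.64 with TNFa. WT + TNFa 2 was the lowest of these 8 arrays and the other 3 treated arrays were the highest. The mutant arrays were at 9.93, 10.14, 10.16 and 10.26, and at 10.40, 10.44, 10.41 and 10.25 with TNFa. The difference was 0.24 log2 in WT, with an adjusted p of 0.296, and 0.25 log2 in the mutant, with an adjusted p of 0.393. Without WT + TNFa 2 the WT difference was 0.41 log2 with an adjusted p of 0.00809, and without WT + TNFa 4 it was 0.13 log2 with 0.569.

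In the BCL2 family, Bid and Bok, which promote death, and Bcl2l1 and Mcl1, which protect, rose. Bid encodes the BH3-only protein that caspase-8 cleaves. Its signal was 7.02, 7.01, 6.82 and 6.84 log2 in WT and 7.68, 7.09, 8.03 and 8.09 with TNFa. Its mutant values were 6.74, 6.72, 6.69 and 6.80, and 7.55, 7.52, 7.80 and 7.64 with TNFa. All treated arrays lay above the untreated ones of their genotype, with WT + TNFa 2 just above WT. The rise was 0.80 ± 0.15 (SE) log2 in WT, 1.74-fold, with an adjusted p of 0.00194, and 0.89 log2 in the mutant, 1.85-fold, with an adjusted p of 0.00122. Without WT + TNFa 2 the WT rise was 1.01 log2.

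Bok, a relative of BAX and BAK, was at 8.63, 8.60, 8.42 and 8.65 log2 in WT and at 9.17, 9.33, 9.01 and 9.17 with TNFa. In the mutant it was 8.61, 8.66, 8.59 and 8.68, and 9.32, 9.24, 9.21 and 9.06 with TNFa. As for Casp4, the 8 treated arrays all lay above the 8 untreated ones. The rise was 0.60 ± 0.07 (SE) log2 in WT, 1.51-fold, with an adjusted p of 3.39e-05, and 0.57 log2 in the mutant, 1.49-fold, with an adjusted p of 7.12e-05. The other effector measured, Bak1, differed by -0.01 and 0.06 log2. Casp4, Bid and Bok kept their calls in both genotypes in all 16 fits that left out 1 array.

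Bcl2l1, which encodes the protector BCL-XL, was at 8.37, 8.45, 8.37 and 8.42 log2 in WT and at 8.57, 8.75, 8.80 and 8.95 with TNFa. The mutant arrays were at 7.75, 8.04, 8.26 and 8.29, and at 8.51, 8.39, 8.53 and 8.48 with TNFa. The groups did not overlap in either genotype, and the untreated mutant arrays were the most spread. The rise was 0.36 ± 0.10 (SE) log2 in WT, 1.29-fold, with an adjusted p of 0.0258, and 0.40 log2 in the mutant, 1.32-fold, with an adjusted p of 0.0233. The WT call was lost without WT 1, WT 3, WT 4, WT + TNFa 3 or WT + TNFa 4 (adjusted p of 0.0531 to 0.0736). The mutant call was lost without mutant 1, mutant 2, mutant + TNFa 1, mutant + TNFa 3 or mutant + TNFa 4 (0.0573 to 0.0706), and with only the 8 mutant arrays fitted (0.0556).

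Mcl1, a short-lived protector, was at 8.57, 8.51, 8.52 and 8.68 log2 in WT and at 8.91, 8.91, 8.80 and 8.63 with TNFa. Its mutant values were 8.59, 8.69, 8.57 and 8.58, and 8.67, 8.73, 8.75 and 8.76 with TNFa. The groups overlapped in both genotypes. The rise in WT was 0.24 ± 0.06 (SE) log2, 1.18-fold, with an adjusted p of 0.0229, and it lost its call without WT 2, WT 3 or WT + TNFa 1 (0.0641 to 0.0708) and with only the 8 WT arrays fitted (0.120). In the mutant the difference of 0.12 log2 had an adjusted p of 0.412.

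The other BCL2 family members were not called in either genotype. Of the BH3-only genes, Bcl2l11, which encodes BIM, differed by 0.22 log2 in WT (adjusted p = 0.152) and by 0.29 log2 in the mutant (adjusted p = 0.0739). It passed in WT without WT + TNFa 1 (0.0494), and in the mutant without WT + TNFa 1 (0.0455), without WT + TNFa 4 (0.0346) and with only the 8 mutant arrays fitted (0.0184). Bad, Bik and Bmf, further BH3-only genes, differed by -0.09 to 0.14 log2. The protectors Bcl2 and Bcl2l2 differed by -0.03 to 0.05 log2, and Bcl2l14 by -0.16 and 0.02 log2. Across all members not called, the changes ran from -0.16 to 0.24 log2 in WT (22 genes, 12 of them within 0.1 log2 of no change) and from -0.17 to 0.29 log2 in the mutant (23 genes, 16 of them within 0.1).

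**Figure D2:**
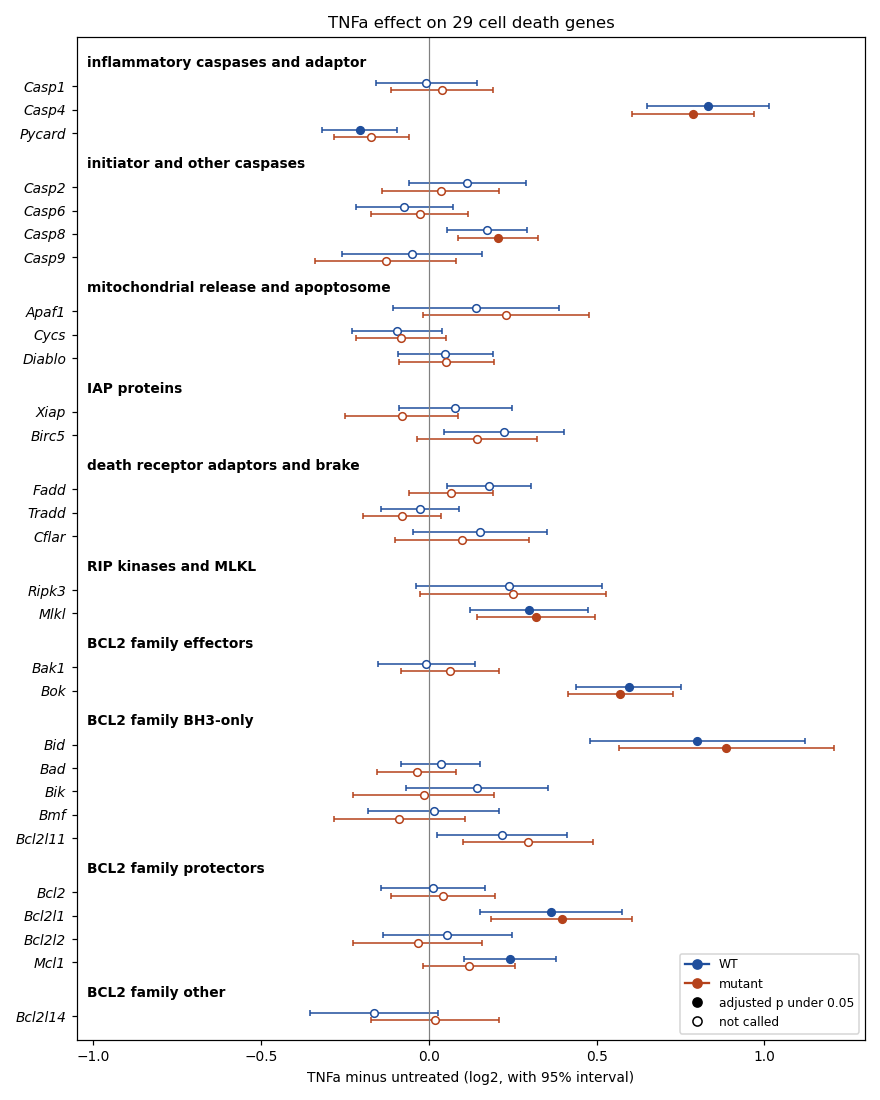
TNFa effect (TNFa minus untreated, log2, with 95% interval) in WT and in the mutant for the 29 tested genes, grouped by role; filled points passed an adjusted p under 0.05. Casp4, Bid and Bok stand farthest to the right in both genotypes, and Pycard lies left of 0.

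Averaging over both genotypes used 8 arrays against 8 and was added after the data were seen. It called 10 of the 29 members, 34.5%, against 15% of all tested genes (7.79% up and 7.22% down): 9 rose and Pycard fell. The 9 were Casp4 (0.81 log2, adjusted p = 4.48e-08), Bok (0.58 log2, 3.77e-07), Bid (0.84 log2, 2.34e-05), Bcl2l1 (0.38 log2, 0.00102), Mlkl (0.31 log2, 0.00127), Casp8 (0.19 log2, 0.00315), Bcl2l11 (0.26 log2, 0.0110), Mcl1 (0.18 log2, 0.0115) and Birc5 (0.18 log2, 0.0483). Centring the arrays on their medians ended the call of Birc5 (adjusted p = 0.109). That call was also lost in 12 of the 16 fits that left out 1 array, all but those without WT 1, WT + TNFa 2, mutant 3 and mutant + TNFa 2 (adjusted p of 0.0503 to 0.109). Without WT + TNFa 2, 12 members were called, where 17.7% of all tested genes were, with Fadd and Ripk3 added (adjusted p = 0.00649 and 0.00146).

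The TNFa effect was not found to differ between the genotypes for any member. The difference of the effects (mutant minus WT) was called for 0 of the 29, by limma with or without adjustment, and for 0.0085% of all tested genes. It ran from -0.16 log2 for Xiap to 0.18 log2 for Bcl2l14, and the smallest adjusted p was 0.809. The 95% intervals were -0.30 to 0.21 log2 for Casp4, -0.37 to 0.54 for Bid and -0.24 to 0.20 for Bok. The intervals of all members reached from -0.46 to 0.54 log2. On simulated arrays this test recovered 8% of differences of 0.25 log2 and 58% of those of 0.5 log2, so differences of these sizes could be missed.

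Between genotypes, Pycard was lower in the mutant, both without and with TNFa. It was the lone member called in each comparison, 3.45% of the members, against 2.48% of all tested genes without TNFa (1% up and 1.48% down) and 2.69% with it (1.56% up and 1.13% down). With the arrays given above, the mutant and WT groups did not overlap in either condition. The difference was -0.28 log2 without TNFa, 1.21-fold lower, with an adjusted p of 0.00642, and this call held in all 16 fits that left out 1 array. With TNFa it was -0.24 log2, 1.18-fold lower, with an adjusted p of 0.0178. That call was lost without WT + TNFa 1 (0.0554), mutant + TNFa 1 (0.0630), mutant + TNFa 3 (0.0585) or mutant + TNFa 4 (0.0512), and with only the 8 treated arrays fitted (0.115). The untreated WT arrays serve both the TNFa comparison in WT and the genotype comparison without TNFa, so the 2 lower values of Pycard there are not independent. Cdx2, an epithelial transcription factor, was lower in the untreated mutant (-0.52 log2, adjusted p = 0.0158), and with TNFa Lyz2 was 1.25 log2 and Chga 0.27 log2 higher in the mutant (adjusted p = 0.00177 and 0.0160); the part of either in these differences was not tested.

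Bcl2l1 was lower in the mutant without overlap of the groups in both conditions. Without TNFa the genotypes did not overlap for 4 lower members and 1 higher, Fadd, against 9.34% of all tested genes. With TNFa they did not overlap for 3 lower members and 0 higher, against 8.89%. The differences of -0.32 log2 (adjusted p = 0.122) and -0.29 log2 (adjusted p = 0.170) were not called, and without mutant 1 the first was -0.21 log2. Mlkl differed by -0.19 and -0.16 log2 (adjusted p = 0.337 and 0.403), and without WT + TNFa 2 the value with TNFa was -0.26 log2 and passed (adjusted p = 0.0466). The remaining members differed by up to 0.19 log2 in size. Averaged over both treatments, a comparison added after the data were seen, 3 members were called as lower in the mutant, 10.3% against 5.88% of all tested genes (2.52% up and 3.36% down). They were Pycard (-0.26 log2, adjusted p = 2.88e-04), Bcl2l1 (-0.30 log2, 0.0147) and Casp6, a caspase that acts late in apoptosis (-0.17 log2, 0.0496). The call of Casp6 held in 2 of the 16 fits that left out 1 array, those without WT 3 and without mutant + TNFa 2; in the others the adjusted p was 0.0507 to 0.115, and it was 0.0541 with the arrays centred. Without WT + TNFa 2, where 7.12% of all tested genes were called, the members called as lower were Pycard, Bcl2l1, Mlkl (-0.22 log2, adjusted p = 0.00617) and Bid (-0.25 log2, 0.0258). With that array Mlkl (-0.18 log2, 0.103) and Bid (-0.14 log2, 0.548) were not called.

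**Figure D3:**
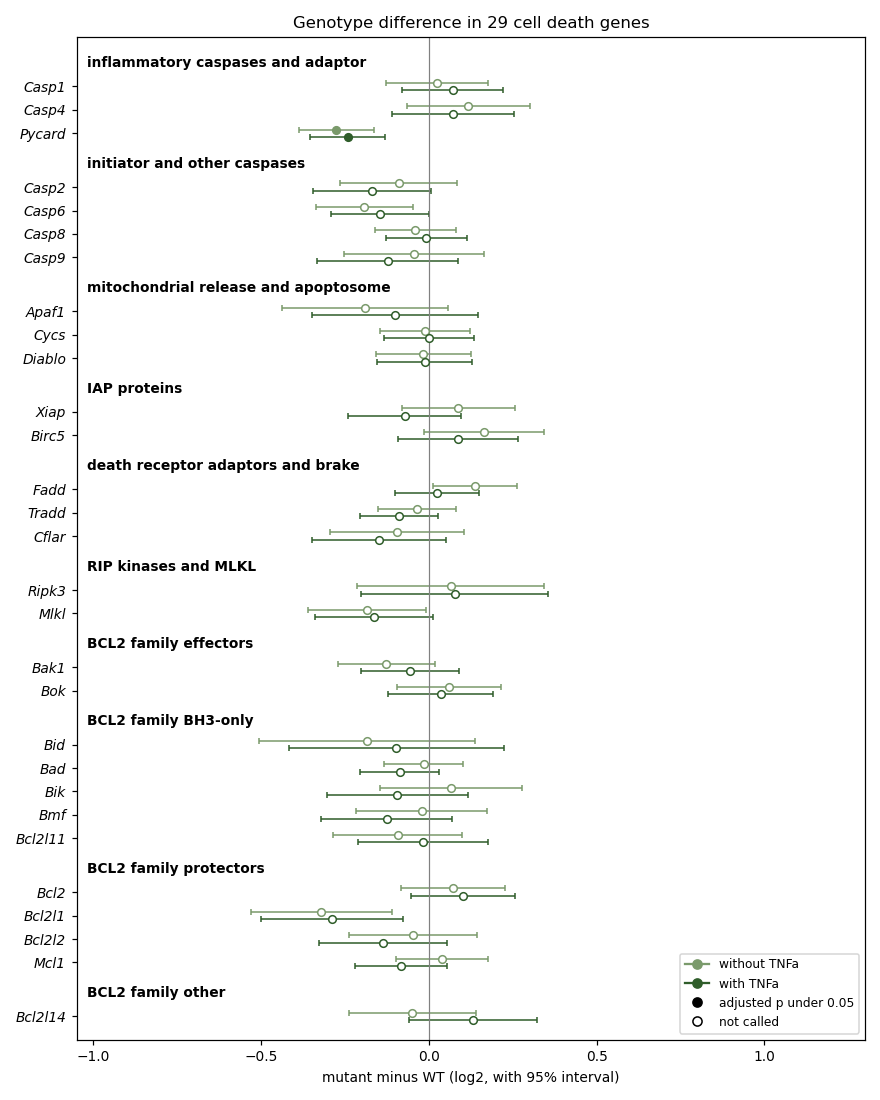
Difference between genotypes (mutant minus WT, log2, with 95% interval) without and with TNFa for the same 29 genes; filled points passed an adjusted p under 0.05. Pycard is the lone gene with filled points, at -0.28 and -0.24 log2, and the values of Bcl2l1 lie farther left with wider intervals.

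Further genes of the same pathways were taken from lists by role, 64 tested in all. Beside their counts stand the shares of all tested genes: 5.03% rose and 5.75% fell in WT, and 3.51% rose and 2.47% fell in the mutant. Of 9 death ligands and receptors, 4 rose in WT and 3 in the mutant, and 0 fell. Tnf, Tnfsf10 (TRAIL), Tnfrsf1b (the second TNFa receptor) and Fas were those with the smallest p. Of 17 genes of the TNF receptor complex, which signals survival, 8 rose in WT and 7 in the mutant, and 0 fell. Ikbke, a kinase of the pathway, rose 1.99 and 1.95-fold, and Traf2, an adaptor of the complex, rose 1.49 and 1.67-fold. Birc3, an IAP of that complex, and Tnfaip3, which encodes the brake A20, also rose in both genotypes. Of 8 genes of apoptosis execution, Htra2, a mitochondrial protease, rose 1.20-fold in WT and 1.24-fold in the mutant, and Casp14, a caspase of skin differentiation, fell 1.86 and 1.63-fold. Birc6, a large IAP, fell 1.22-fold in WT and was 1.23-fold higher in the mutant with TNFa (adjusted p = 0.0156). Of 11 other BCL2 family genes, Pmaip1, which encodes NOXA, rose 1.31-fold in WT and 0 were called in the mutant.

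Of 13 inflammasome and pyroptosis genes, 3 rose and 7 fell in WT (all tested genes: 5.03% and 5.75%), and 3 rose and 4 fell in the mutant (3.51% and 2.47%). The gasdermin genes Gsdmc2, Gsdmc3 and Gsdmc4 were among those that fell in both, and Il1a rose in both from the dim range. Gsdmd, the gasdermin that caspase-4 cleaves, rose 1.45-fold in WT and 1.52-fold in the mutant; it was named after its values were seen. Of 6 necroptosis sensing genes, Ticam1, an adaptor, fell 1.17-fold in WT and Tlr3, a sensor of double-stranded RNA, rose 1.18-fold in the mutant. Tlr3 was lower in the mutant without TNFa (-0.21 log2, adjusted p = 0.0443), and with TNFa the mutant was higher for Tnfsf10 (1.46-fold, adjusted p = 0.0480) and Il1a (1.57-fold, adjusted p = 0.0203). Tnfsf10, Il1a, Casp14, Gsdmc2 and Gsdmc3 had group means in the dim range, below 6.56 log2, where a fold change is approximate.

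**Figure D4:**
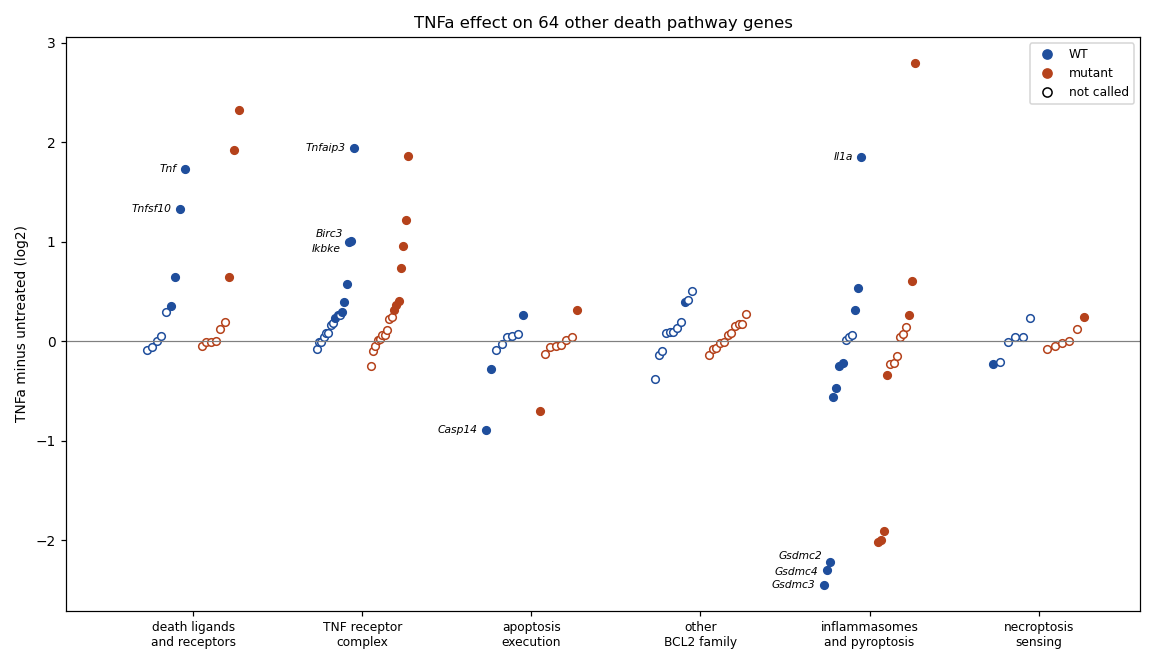
TNFa effect (TNFa minus untreated, log2) on the 64 other tested pathway genes, 1 point a gene, by list and genotype; filled points passed an adjusted p under 0.05. The TNF receptor complex has filled points above 0 alone, while the inflammasome list has them on both sides, down to the 3 gasdermin C genes.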

How the data were processed

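The authors deposited log2 signals, computed with RMA in Affymetrix Expression Console per the submitters' processing notes; tool versions and the array design are not given in the sources used here. Every sample's labels carry the TNFa protocol, and those whose title names TNFa were taken as treated. Members and gene lists were chosen with earlier results of these data known. The brightest probe set stood for each gene, and genes above their array's 40th percentile (6.40 to 6.56 log2) on at least 4 of 16 arrays were tested. The 4 group means were fitted to all 16 arrays in limma 3.58.1 under R 4.3.3, with Benjamini-Hochberg adjustment over 11766 genes. On simulated arrays with 200 changed genes, changes of 0.25 and 0.5 log2 were recovered for 32% and 74% (TNFa in WT), 28% and 78% (TNFa in mutant), 26% and 90% (genotype without TNFa) and 36% and 86% (genotype with TNFa). These shares hold for that number of changed genes, with noise drawn independently for each gene.

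Values in every array are given for members called in any of the 5 planned comparisons and for Fadd and Ripk3, added after their values were seen. Each further list gave at most 4 names, its called genes of smallest p, with the genes called in the other comparisons. The number of arrays limits the precision, and no label gives a batch. Alternatives changed the filter, normalization, fit, arrays used or replicate block.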

Additional observations from a re-analysis of the deposited data

Results flagged for a closer look

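Each group of 4 arrays was examined for a highest or lowest array far from the other 3, for each of the 30 measured members. Of 120 such groups 5 were picked out; chance picks out about 1 in 20. In WT + TNFa, replicate 2 was the highest for Casp2 at 9.22 log2 (the others were at 8.94 to 8.96) and the lowest for Cycs at 11.63 (the others 11.90 to 11.94). In WT, replicate 3 was the highest for Cycs at 11.96 (the others at 11.94). In the mutant with TNFa, replicate 3 was the highest for Fadd at 8.50 (the others 8.35 to 8.37), and in the mutant, replicate 2 was the highest for Mcl1 at 8.69 (the others 8.57 to 8.59). No member's TNFa effect was shown to differ between the genotypes.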

How the results depend on the processing

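Casp4, Bid and Bok kept their TNFa calls in both genotypes, and Pycard its genotype call without TNFa, under all alternatives run. Beside each count below stands the share of all genes in that fit that were called. The count of members called for TNFa in WT, 7 (10.8%), became 3 with no filter (5.11%) and 11 with array weights (15%). It became 4 when only the arrays of those groups were fitted (6.12%). With 1 array left out it ran from 4 to 11 (8.12 to 12.2%). For TNFa in the mutant the 6 (5.98%) became 3 to 8 with 1 array left out (4.28 to 7.65%). For genotype with TNFa the 1 (2.69%) became 0 with no filter (1.28%), 2 with array weights (5.24%) and 0 with only those groups fitted (1.57%). With 1 array left out it became 0 to 2 (1.63 to 2.89%). Over both treatments the 3 members called by genotype (5.88%) became 5 with array weights (9.11%) and 2 to 4 with 1 array left out (4.45 to 7.12%). The TNFa count over both genotypes, 10 (15%), became 9 to 12 with 1 array left out (12.8 to 17.7%). In all alternatives the genotype count without TNFa stayed at 1 (1.25 to 3.77%) and the difference of effects at 0 (0 to 0.0425%). The cause of these shifts was not tested. No result changed direction while called. With no filter, Pycard in WT (adjusted p = 0.0505) and with TNFa between genotypes (0.0513), Bcl2l1 in WT (0.0504), Mcl1 in WT (0.0544), Mlkl in WT (0.0581) and in the mutant (0.0602) and Casp8 in the mutant (0.102) lost their calls. Over all genes, the count called for TNFa in WT was 1269, and 720 with only those groups fitted. With array weights it went from 704 to 1095 for TNFa in the mutant, from 292 to 443 for genotype without TNFa, from 317 to 617 for genotype with TNFa (185 with only those groups fitted) and from 692 to 1072 over both treatments. The 1 gene called for the difference of TNFa effects became 3 with the stricter filter, 5 with a variance trend, 3 with array weights and 0 with the replicate block. Another normalization moved the median of all genes by at most 0.0234 log2, yet centring on array medians ended the calls of Mlkl in WT (0.0751) and in the mutant (0.0694) and of Casp8 in the mutant (0.0829).

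With the replicate number as a block, the counts of members called were 7, 6, 1, 1 and 0 in the planned comparisons. The shares of all tested genes called there were 9.09, 5.23, 2.09, 2.23 and 0%. In the averaged comparisons 9 and 2 members were called, against 13.6 and 5.04% of all tested genes. That block joined same-numbered arrays of both genotypes, and a pairing within each genotype was not fitted. The titles repeat the number, as in WT 1 and WT 1 + TNFa, without stating a shared culture. The deviations of same-numbered arrays correlated between -0.31 and 0.25. Between treated and untreated arrays of a genotype the range was -0.30 to 0.19, so these values do not show a pairing. The spread between 4 arrays limits what could be seen: changes of 0.25 log2 were mostly not recovered on simulated arrays in the planned comparisons.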

Other observations

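Without WT + TNFa 2, 11 members were called for TNFa in WT in place of 7, in either direction. The share of all tested genes called in either direction went from 10.8% to 12.2%. Of the members, 10 were raised in place of 6. Fadd (adjusted p = 0.00636), Ripk3 (0.00809), Birc5 (0.0280) and Casp8 (0.0369) joined the 6. All 7 members called with that array were also called without it. The median SD over the 29 tested members was 0.14 log2 in WT + TNFa, against 0.07 in WT, 0.10 in the mutant and 0.07 in the mutant with TNFa. Among the members whose signal was lowest on this array of the treated WT arrays were Casp4, Casp8, Bid, Ripk3, Mlkl, Fadd and Birc5. Bok, Casp2 and Apaf1 were among those whose signal was highest on it. Leaving out the lowest treated array necessarily raises the difference with TNFa, and leaving out the highest lowers it. The members named in this paragraph were chosen after their values were seen.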
